A study of Homo sapiens with 8 samples.

Results

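The genes described here encode the proteins of the mitochondrial ribosome. They were chosen by symbol alone, as the rows of the deposited table named MRPL or MRPS followed by a number and at most 1 further letter, with a value in all 8 libraries. This gave 78 genes of the 54174 symbols in the table and of the 13943 symbols with a value in every library. By symbol 49 belong to the large subunit (MRPL) and 29 to the small subunit (MRPS). Every symbol that fitted the pattern had a value in all 8 libraries and passed the filter on low values, so no gene was lost. A further 110 MRPL or MRPS pseudogene and antisense symbols were blank in every library.

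The mitochondrial ribosome makes the few proteins that the mitochondrial genome encodes, all of which are core parts of the respiratory chain and the ATP synthase. All of its proteins are encoded in the nucleus, made in the cytosol and imported into the organelle, where the small subunit reads the messenger RNA and the large subunit joins the amino acids. Some of its proteins descend from bacterial ribosomal proteins and others are found in mitochondria only. Their genes are scattered over the nuclear chromosomes.

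RNA was sequenced from 143B, an established human osteosarcoma cell line, in a study of NELL1, a secreted growth factor of bone. Cells received by transient transfection either a plasmid labelled for NELL1 knockout or a vector control plasmid, and were taken 48 h later. Each group has 4 biological replicates, numbered 1 to 4, called control and knockout libraries 1 to 4 below. Both groups share the parental line, the transfection reagent and the culture medium with fetal bovine serum. The share of transfected cells that carried an edit was not analysed here, and a transient transfection can leave unedited cells in the culture.

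The deposited values are on a log2 scale and have the same distribution in every library, so each value is relative to the rest of the transcriptome. Read counts and sequencing depth are unknown. NELL1 was near the bottom of the scale in all libraries, at -6.97, -6.97, -4.53 and -5.00 in controls 1 to 4 and -4.82, -5.87 and -6.96 in knockouts 1, 2 and 4, with no value in knockout 3. The groups overlapped and their means differed by -0.013 (p = 1 in an exact permutation test, two-sided, in which the 35 splits allow no p below 0.0286), so the target's RNA level did not separate the labels. The knockout libraries stood apart as pairs: over the 9016 tested genes the SD of the difference was 0.12 between knockouts 1 and 2 and 0.13 between knockouts 3 and 4. Between those pairs it was 0.46 to 0.50, against 0.10 to 0.29 among controls. Results are therefore also given within replicates 1 and 2 and within replicates 3 and 4. Of the osteoblast-lineage markers, SPARC was at 5.23 to 6.15 and RUNX2 at 0.05 to 0.43, whereas COL1A1 was at -1.45 to 0.90, ALPL stayed below 0 and COL1A2 had a value in only 4 libraries. Of the epithelial markers, KRT8 was at 6.52 to 7.10, KRT18 at 8.75 to 9.13 and EPCAM at 1.83 to 2.76, whereas CDH1 had a value in only 2 libraries and KRT19 in 6. The leukocyte markers PTPRC and CD3E were blank throughout, and CD14, LYZ and the 3 endothelial markers were at -2.67 or lower, or blank.

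Promoter sequences of RefSeq on GRCh38.p14, from 250 bases before to 50 bases after a listed start, were matched by symbol for 69 of the 78 genes. For some genes this start lies inside the gene span used for positions below, among them MRPL24, MRPL36, MRPL44, MRPS2 and the called MRPL39. Letters near another start of those genes were not searched. MRPS28, MRPS36, MRPL10, MRPL21, MRPL35, MRPL23, MRPL2, MRPL13 and MRPL15 had no entry. Letters typical of 3 factors that act at promoters of mitochondrial genes were searched on both strands: CCGGAAG for ETS factors such as GABPA, AAGATGGC for YY1, and, for NRF1, GCGC followed by any base and TGCGC. The ETS and YY1 strings can share bases where they meet, which occurred in 0 of the members' promoters. The ETS letters were in 29 of 69 promoters (42%), against 22% of the 7423 promoters of tested genes and 10.7% of all 27305 promoters. The YY1 letters were in 20 promoters (29%), against 6.33% and 3.03%. The NRF1 letters were in 8 promoters (11.6%), against 13.1% and 6.28%. By subunit, the ETS letters were in 40.5% of MRPL and 44.4% of MRPS promoters, the YY1 letters in 28.6% and 29.6%, and the NRF1 letters in 14.3% (6 of 42) and 7.41% (2 of 27). The promoters shown belong to genes on which the results below turn: MRPL33 and MRPL28 rose in the knockout libraries and are the 2 of 8 called genes with a promoter sequence that hold the ETS letters (the other 6 hold neither the ETS nor the YY1 letters), MRPS10 moved in opposite directions in the 2 pairs of replicates and holds both the ETS and the YY1 letters, and MRPS11 and MRPL46 lie head to head. Capitals mark the ETS letters (CCGGAAG, or CTTCCGG where they lie on the other strand) and the YY1 letters (AAGATGGC), and each sequence runs 5′ to 3′ on the strand of its gene.
MRPL33 (chr2:27771469-27771768, plus strand): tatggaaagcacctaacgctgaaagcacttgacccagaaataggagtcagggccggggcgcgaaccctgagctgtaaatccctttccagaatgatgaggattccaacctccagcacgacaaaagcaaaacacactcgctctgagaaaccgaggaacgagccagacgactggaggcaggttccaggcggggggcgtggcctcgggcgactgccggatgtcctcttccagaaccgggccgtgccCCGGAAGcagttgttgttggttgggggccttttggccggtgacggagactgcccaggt
MRPL28 (chr16:370489-370788, minus strand): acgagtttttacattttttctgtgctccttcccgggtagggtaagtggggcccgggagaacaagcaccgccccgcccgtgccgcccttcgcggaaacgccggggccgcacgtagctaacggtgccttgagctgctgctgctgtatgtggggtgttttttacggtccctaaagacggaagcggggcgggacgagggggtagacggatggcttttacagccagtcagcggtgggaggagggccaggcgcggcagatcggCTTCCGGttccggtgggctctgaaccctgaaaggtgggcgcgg
MRPS10 (chr6:42217812-42218111, minus strand): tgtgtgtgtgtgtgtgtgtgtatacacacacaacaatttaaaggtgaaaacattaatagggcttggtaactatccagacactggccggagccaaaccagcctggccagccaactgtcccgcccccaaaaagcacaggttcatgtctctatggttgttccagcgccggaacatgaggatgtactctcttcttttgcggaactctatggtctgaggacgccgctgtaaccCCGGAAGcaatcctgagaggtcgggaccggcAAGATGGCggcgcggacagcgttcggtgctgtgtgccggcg
MRPS11 (chr15:88467458-88467757, plus strand): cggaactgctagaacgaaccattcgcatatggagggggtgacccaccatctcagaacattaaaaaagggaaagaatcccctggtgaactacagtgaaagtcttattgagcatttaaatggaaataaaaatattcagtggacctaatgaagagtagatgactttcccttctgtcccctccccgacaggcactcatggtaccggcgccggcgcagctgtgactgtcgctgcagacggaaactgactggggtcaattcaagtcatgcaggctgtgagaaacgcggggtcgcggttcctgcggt
MRPL46 (chr15:88467339-88467638, minus strand): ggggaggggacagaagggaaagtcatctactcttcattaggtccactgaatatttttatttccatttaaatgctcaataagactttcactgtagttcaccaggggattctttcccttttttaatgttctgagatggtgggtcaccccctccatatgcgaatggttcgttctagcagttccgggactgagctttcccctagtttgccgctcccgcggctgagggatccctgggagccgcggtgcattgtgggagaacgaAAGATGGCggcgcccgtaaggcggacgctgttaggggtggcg
The ETS letters begin 8 bases before the start of MRPL33 and 8 bases after that of MRPL28. In MRPS10 the ETS letters begin 22 bases before the start and the YY1 letters at base 10 after it. The starts of MRPS11 and MRPL46 are 320 bases apart and their windows share 181 bases, yet the YY1 letters, at base 9 after the start of MRPL46, fall outside the window of MRPS11. A match of letters describes the sequence only.

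Across all 8 libraries, 9 of the 78 mitochondrial ribosomal protein genes rose in the knockout libraries and none fell. Those 9 are 11.5% of the genes, beside 7.02% of all 9016 tested genes called higher and 6.1% called lower (13.1% called in all). A gene was called at an adjusted p under 0.05 in limma, a linear model that shares the estimate of spread across genes. At an unadjusted p under 0.05, 20 of the genes were higher (background 16%) and 4 were lower (background 13.7%). The median log2 fold change, knockout minus control, was 0.11 over the 78 genes and 0.0072 over all tested genes, and the range was -0.30 to 0.55. In 56 of the 78 genes the change was above 0, beside 51.3% of all tested genes. All 4 knockout values lay above all 4 control values in 14 genes (background 12.5%) and below them in 2 genes, MRPS21 and MRPS6 (background 10.4%). In bulk RNA a shift in the share of cells of a kind and a change in RNA per cell cannot be told apart. With same-numbered libraries paired as a block, 4 of the 9 genes were called (background 5.68% called higher and 4.57% lower). With the close knockout pairs each averaged to 1 library limma called 0 (background 0.488% called higher and 0.71% lower). At an unadjusted p under 0.05 that fit had 12 members higher and 1 lower. Without control 1 limma also called 0 members (background 2.54% called higher), and it called 2 without control 2 (background 2.51%) and 2 without control 4 (background 2.35%). At an unadjusted p under 0.05 the fit without control 1 had 13 members higher and 4 lower. The share of all tested genes at an unadjusted p under 0.05 was not taken for the averaged pairs or without control 1. These 2 sets of unadjusted counts therefore have no background and are not read as a rise that remains in those fits.

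**Figure D1:**
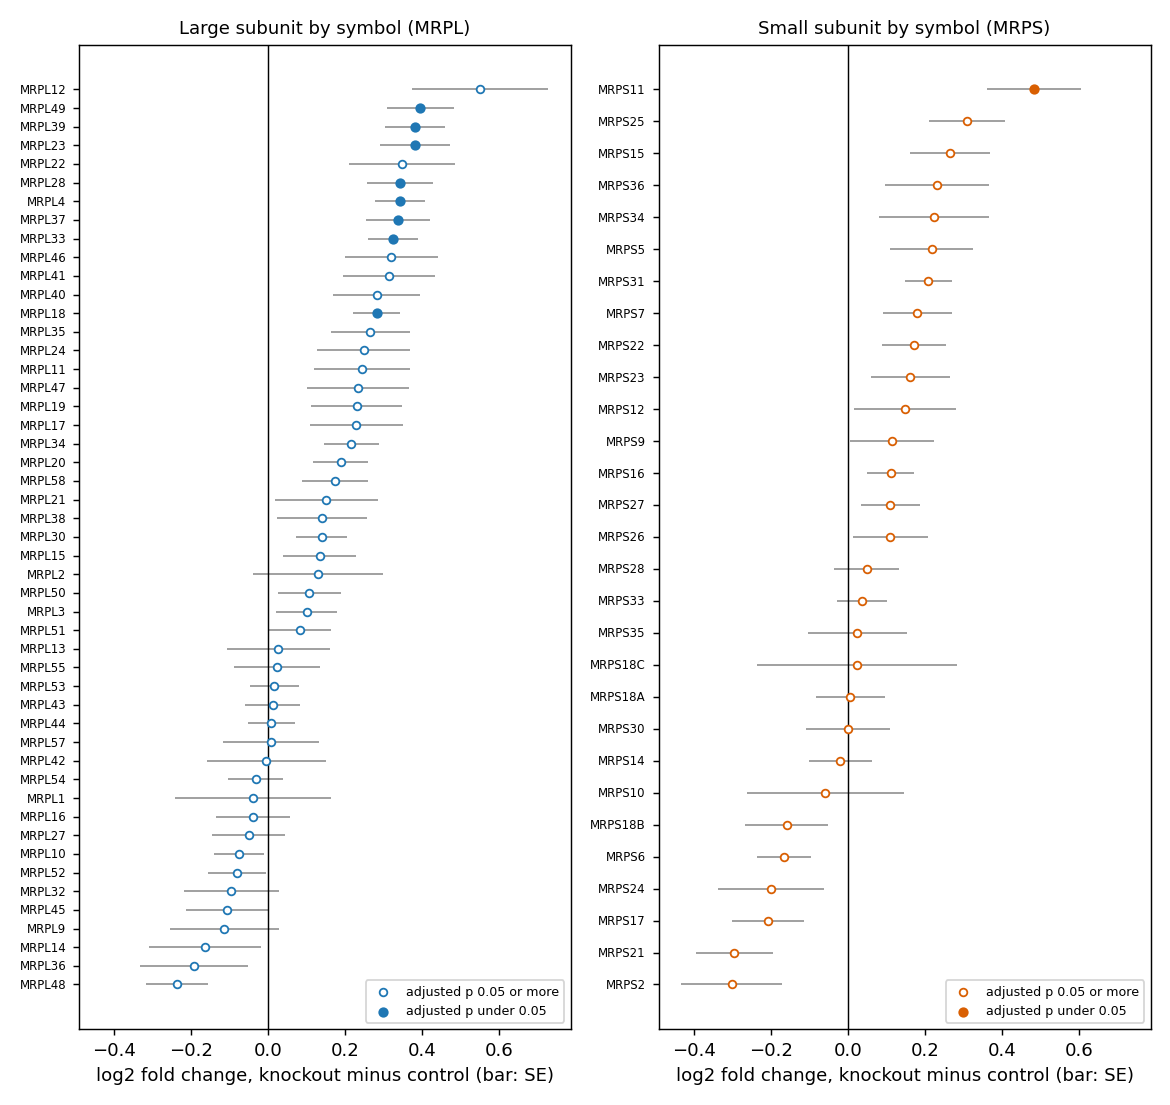
Log2 fold change (x axis, knockout minus control, 4 libraries each) of the 49 MRPL genes (left) and 29 MRPS genes (right), sorted by size, with bars for the standard error and filled points for an adjusted p under 0.05. The filled points are the 8 MRPL genes and MRPS11, and most of the other points also lie right of 0.

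Of the proteins conserved from bacteria, MRPL4, which reaches into the core of the large subunit, was at 3.44, 3.52, 3.51 and 3.54 in controls 1 to 4 and 3.82, 3.75, 3.84 and 3.95 in knockouts 1 to 4. Every knockout value lay above every control value, and the control values were close together. The log2 fold change was 0.34 (SE 0.07, adjusted p = 0.014, and 0.0377 with the replicate block; gene at chr19:10251951-10260055). Among the 8 fits that left out 1 library, MRPL4 was called in 7, MRPL33 and MRPL39 in 6, MRPL49 in 4, MRPS11 in 3, MRPL18 and MRPL23 in 2, and MRPL28 and MRPL37 in 1. MRPL33, a small protein of the large subunit (chr2:27771719-27779733), was at 5.18, 5.24, 5.31 and 5.34 in the controls and 5.54, 5.56, 5.61 and 5.66 in the knockouts. Here too the groups were apart, with the highest values in knockouts 3 and 4. The rise was 0.32 log2 (SE 0.06, adjusted p = 0.0165, with the block 0.036). MRPL18, which belongs to the central protuberance where the subunits meet (chr6:159789812-159798429), was at 4.80, 4.76, 4.69 and 4.75 in the controls and 5.08, 5.06, 5.04 and 4.95 in the knockouts. Its log2 fold change was 0.28 (SE 0.06, adjusted p = 0.0223), and it was not called in the fit with the replicate block (adjusted p = 0.0563). The groups did not overlap, and knockout 4 was the closest to the controls.

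MRPL23, a protein at the exit of the peptide tunnel (chr11:1947332-2014944), was at 3.81, 3.97, 4.19 and 4.06 in the controls and 4.48, 4.37, 4.39 and 4.31 in the knockouts. Control 3 came nearest to the knockout values without reaching them. The log2 fold change was 0.38 (SE 0.09, adjusted p = 0.0297, with the block 0.067). MRPL28 (chr16:366969-370538), another large-subunit protein with a bacterial counterpart, was at 4.36, 4.34, 4.65 and 4.58 in the controls and 4.86, 4.88, 4.79 and 4.77 in the knockouts. Controls 3 and 4 were higher than controls 1 and 2, and the gap to the knockouts was narrower there. Its log2 fold change was 0.34 (SE 0.09, adjusted p = 0.0348, with the block 0.0778), and of the fits without 1 library it was called only in the one without control 3. MRPS11 (chr15:88467708-88480776), the only small-subunit gene called, was at 2.00, 2.04, 2.30 and 2.20 in the controls and 2.39, 2.47, 2.83 and 2.78 in the knockouts. In both groups libraries 3 and 4 were higher than libraries 1 and 2, and the groups did not overlap. Its log2 fold change was 0.48 (SE 0.12, adjusted p = 0.0353, with the block 0.0201), a 1.4-fold rise, and 0.26 (adjusted p = 0.0654) with the chromosome medians removed, as described with the positions below.

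The remaining called genes encode large-subunit proteins that bacteria lack. MRPL39 (chr21:25585656-25607859) was at 2.91, 3.05, 2.73 and 2.93 in the controls and 3.30, 3.28, 3.23 and 3.33 in the knockouts, the latter with an SD of 0.04 (n = 4). The rise was 0.38 log2 (SE 0.08, adjusted p = 0.0179, with the block 0.0348). The knockout libraries agreed closely although they fall into 2 pairs, and the groups were apart. MRPL49 (chr11:65122183-65127371) was at 3.81, 3.91, 4.05 and 3.85 in the controls and 4.45, 4.36, 4.18 and 4.20 in the knockouts. It rose by 0.39 log2 (SE 0.09, adjusted p = 0.0226, with the block 0.0593), and knockouts 1 and 2 were the higher pair. MRPL37 (chr1:54200167-54225489) was at 5.44, 5.55, 5.79 and 5.62 in the controls and 6.01, 5.95, 5.88 and 5.90 in the knockouts. Control 3 came nearest to the knockout values, with no overlap. The log2 fold change was 0.34 (SE 0.08, adjusted p = 0.0336, with the block 0.0783), and MRPL37 was called only without control 3 among the fits that left out 1 library.

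**Figure D2:**
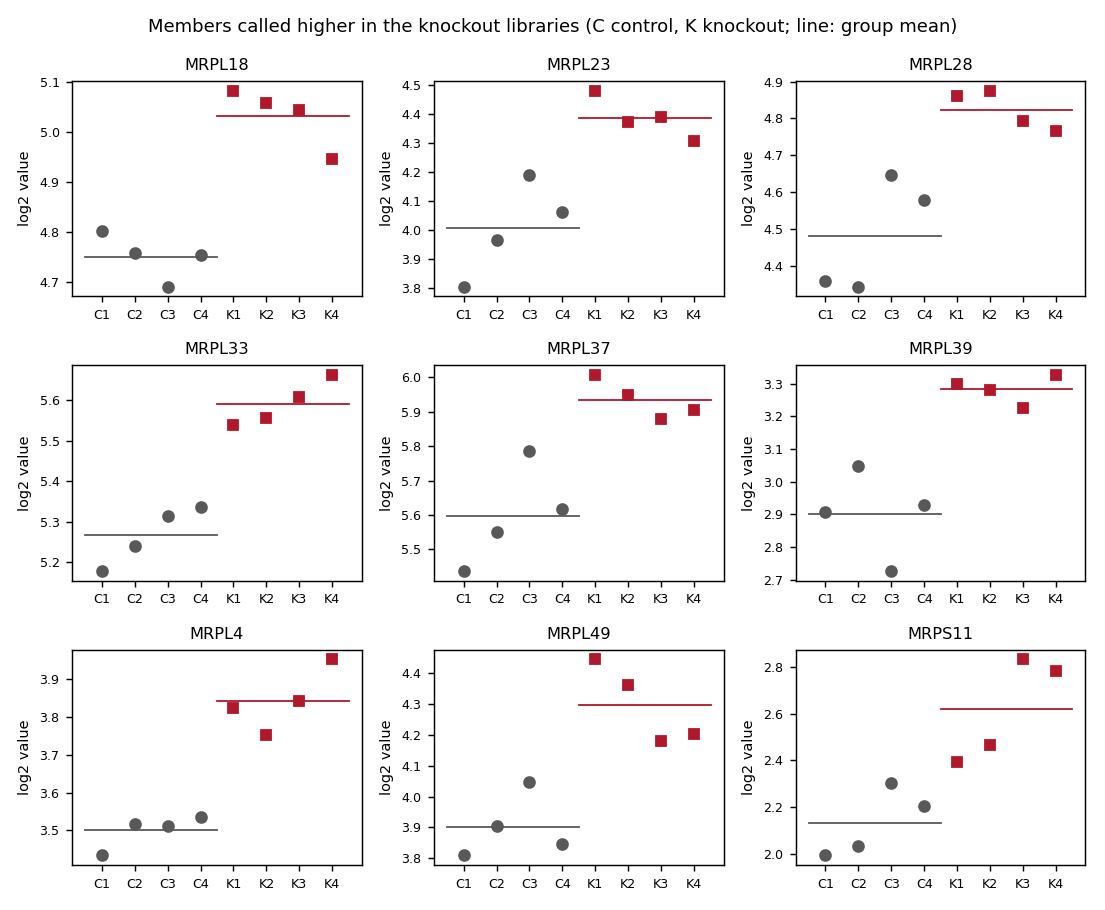
Deposited log2 values (y axis, a different range in each panel) of the 9 called genes in control libraries 1 to 4 (grey circles) and knockout libraries 1 to 4 (red squares), with lines at the group means. In each panel all knockout values lie above all control values, and for MRPS11 libraries 3 and 4 are the higher ones in both groups.

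The largest change among all 78 genes did not pass the test. MRPL12, the stalk protein that brings translation factors to the ribosome, was at 4.73, 4.74, 5.28 and 4.89 in the controls and 5.26, 5.23, 5.44 and 5.92 in the knockouts. Control 3 lay above knockouts 1 and 2, and knockout 4 was the highest, so the groups overlapped, and the log2 fold change of 0.55 had an SE of 0.18 and an adjusted p of 0.0737. In the small subunit the next largest changes above 0 were those of MRPS25, a mitochondria-specific protein, at 0.31 (SE 0.10, adjusted p = 0.0714), and of MRPS15, which has a bacterial counterpart, at 0.26 (SE 0.10, adjusted p = 0.13). Neither passed. On the other side, MRPS2 had a log2 fold change of -0.30 (SE 0.13, adjusted p = 0.165), MRPS21 of -0.30 (SE 0.10, adjusted p = 0.0876) and MRPS17 of -0.21 (SE 0.09, adjusted p = 0.178). All of these small-subunit proteins have bacterial counterparts. In the large subunit the lowest changes were those of MRPL48, a protein of the central protuberance, at -0.24 (SE 0.08, adjusted p = 0.0859), of MRPL36 at -0.19 (SE 0.14, adjusted p = 0.396) and of MRPL14 at -0.17 (SE 0.14, adjusted p = 0.487). Single libraries moved these sizes: MRPS2 was at -0.19 and MRPL36 at -0.0823 without control 3, and MRPL14 at -0.0509 without knockout 4. Without control 3 limma called MRPL48 lower (-0.29, adjusted p = 0.0322). Within replicates 1 and 2 MRPS2 was at -0.30 (adjusted p = 0.00294), and within replicates 3 and 4 it was at -0.31 (adjusted p = 0.0827). MRPS21 was at 5.88, 5.97, 5.99 and 6.02 in the controls and 5.82, 5.84, 5.58 and 5.44 in the knockouts. Its knockout values were all lower than its control values, most clearly in knockouts 3 and 4.

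Large-subunit genes made up 8 of the 9 calls. Among MRPL genes 8 of 49 rose (16.3%), with a median log2 fold change of 0.14, a mean of 0.13 and 36 genes above 0 (73.5%). Among MRPS genes 1 of 29 rose (3.45%), with a median of 0.11, a mean of 0.06 and 20 genes above 0 (69%). Over all tested genes 7.02% were called higher and 51.3% had a change above 0. The distance between the medians depended on single libraries. Without knockout 2 they were 0.11 for MRPL and 0.0451 for MRPS, and without knockout 4 they were 0.16 and 0.15. No test of the difference between the subunits was made. At an unadjusted p under 0.05, 16 MRPL genes were higher and 1 lower, and 4 MRPS genes were higher and 3 lower (background 16% higher and 13.7% lower). Symbols do not follow the subunits exactly: MRPS18A and MRPS30 sit in the large subunit and MRPS36 is now known as a part of the 2-oxoglutarate dehydrogenase complex. With those moved, the large subunit had 51 genes with 8 called and a median of 0.13, and the small subunit had 26 genes with 1 called and a median of 0.11.

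The mean over MRPL genes of the deviation from each gene's mean was -0.14, -0.08, -0.0076 and -0.03 log2 in controls 1 to 4 and 0.18, 0.13, -0.02 and -0.02 in knockouts 1 to 4. For MRPS genes it was -0.09, -0.04, 0.012 and -0.0035 in the controls and 0.15, 0.12, -0.06 and -0.09 in the knockouts. Knockouts 1 and 2 were the high libraries in both subunits, while knockouts 3 and 4 lay within the range of the controls in both. The MRPL mean minus the MRPS mean was -0.17, -0.16, -0.14 and -0.15 in the controls and -0.09, -0.10, -0.08 and -0.06 in the knockouts. Its absolute level depends on which genes are averaged and is not read here. It was higher by 0.07 in the knockout libraries, and all 4 of them lay above all 4 controls, in both pairs. Within replicates 3 and 4 the median log2 fold changes were nearly the same, at -0.046 for MRPL and -0.048 for MRPS. Chromosome position was not taken into account in this difference of means.

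**Figure D3:**
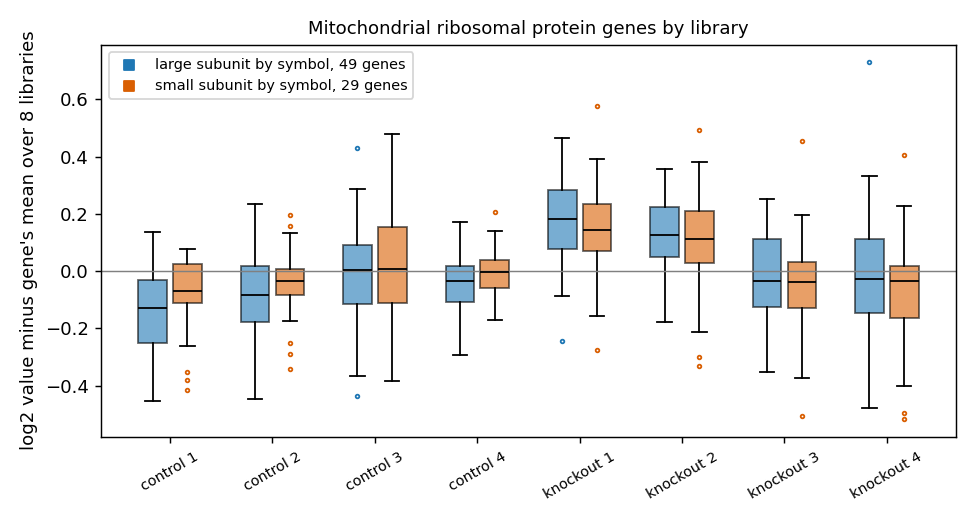
Deviation of each gene from its own mean over the 8 libraries (y axis, log2) by library, for 49 MRPL genes (blue) and 29 MRPS genes (orange); boxes show quartiles and median, whiskers reach to 1.5 times the box height and circles are genes beyond. Knockouts 1 and 2 stand above the other libraries in both subunits, and knockouts 3 and 4 are centred near 0.

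In replicates 1 and 2 most of these genes rose, and in replicates 3 and 4 most were not called. Within replicates 1 and 2, 57 of the 78 genes were called higher (background 33%) and 4 lower (background 26.6%), with a median log2 fold change of 0.25. The change was above 0 in 68 of 78 genes, beside 54% of all tested genes. Within replicates 3 and 4, 7 were called higher (background 15.7%) and 10 lower (background 17.4%), with a median of -0.05 and 34 genes above 0, beside 49.7%. By subunit, the first pair of replicates gave medians of 0.26 for MRPL and 0.22 for MRPS, and the second pair -0.046 and -0.048. These fits rest on pairs of libraries. The knockout pairs and controls 1 and 2 are close, whereas controls 3 and 4 are less so (SD of the difference 0.19, against 0.13 between controls 2 and 4). The p-values measure the spread within these pairs, and the calls are many for all genes. Leaving out knockouts 3 and 4 but keeping all controls, 34 members were called higher (background 21.4%) and 3 lower (background 19.2%), and leaving out knockouts 1 and 2 gave 13 higher (background 20.6%) and 14 lower (background 20.8%). A term for replicates 1-2 against 3-4 gave 16 higher (background 13.8%) and 3 lower, MRPS2, MRPS21 and MRPL48 (background 11.4%). The cause of the split between the pairs was not tested.

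Calls in the same direction in both pairs of replicates were made for 7 genes (background 14%): MRPL4, MRPL12, MRPL18, MRPL33, MRPL39, MRPS11 and MRPS25, all higher. Opposite calls were made for 5 genes (background 7.13%): MRPL1, MRPL9, MRPL36, MRPS10 and MRPS18C, each higher in replicates 1 and 2 and lower in replicates 3 and 4. MRPS18C, one of 3 human relatives of bacterial protein S18, was at 3.02, 3.20, 3.12 and 3.17 in the controls and 3.72, 3.63, 2.63 and 2.62 in the knockouts. Knockouts 1 and 2 lay above every control and knockouts 3 and 4 below, so the mean change over all 8 libraries was 0.023 (SE 0.26). The first pair of replicates gave a log2 fold change of 0.56 (SE 0.07, adjusted p = 0.00102) and the second pair -0.52 (SE 0.08, adjusted p = 0.00305). MRPS10, a small-subunit protein with a bacterial counterpart, was at 5.05, 5.02, 5.02 and 5.09 in the controls and 5.39, 5.40, 4.64 and 4.52 in the knockouts. The pattern was that of MRPS18C, with changes of 0.36 (SE 0.05) and -0.48 (SE 0.09). The largest differences the other way were small: MRPS14 changed by -0.14 and 0.10 and MRPL57 by -0.12 and 0.13, none of them called. MRPL36, which belongs to the core of the large subunit, had changes of 0.15 and -0.54.

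**Figure D4:**
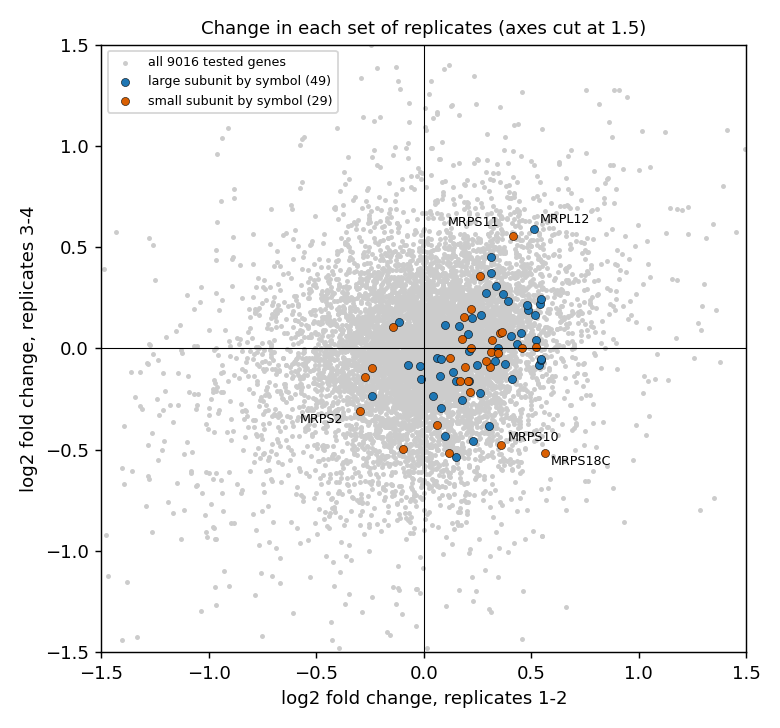
Log2 fold change of each gene in replicates 1 and 2 (x axis) against that in replicates 3 and 4 (y axis), for 49 MRPL genes (blue), 29 MRPS genes (orange) and the 9016 tested genes (grey), with the axes cut at 1.5 so that more extreme genes are not drawn. Most coloured points lie right of 0, and they spread to both sides of 0 on the y axis, with MRPS18C and MRPS10 at the lower right.

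Chromosome position went with the changes in replicates 3 and 4. RefSeq positions on GRCh38.p14 were found for 77 of the 78 genes, all but MRPS36, and for each gene the median change of the other tested genes that start within 5 Mb was taken, over 9 to 162 genes. A limit of -0.2 log2 was chosen after seeing the values. In replicates 3 and 4, 15 genes had a neighbour median below it, and all 15 had a change below 0, with a median of -0.38. The other 62 genes had a median of 0.016, with 33 above 0. Of the 10 genes called lower in replicates 3 and 4, 8 had such neighbours, the exceptions being MRPL36 (neighbours 0.08) and MRPL45 (neighbours 0.03), which anchors the ribosome to the inner membrane. Among all tested genes, 11% had such neighbours, and among those called lower in replicates 3 and 4, 39.7% did.

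Members on such stretches differed in how far they changed. On chromosome 6, MRPS10 (chr6:42206807-42217861) changed by -0.48 beside neighbours at -0.43, and MRPL14 (chr6:44113451-44127452) by -0.43 beside neighbours at -0.44. On the same stretch MRPL2 had a change of -0.15 and MRPS18A of -0.16 beside neighbours at -0.44, neither of them called. On chromosome 8, MRPS28 had a change of -0.09 beside neighbours at -0.55 and MRPL15 of -0.06 beside neighbours at -0.34, again without a call. On chromosome 1, MRPS21 (chr1:150293861-150308979) changed by -0.50 with neighbours at -0.42, and MRPL9 (chr1:151759647-151763496) by -0.46 with neighbours at -0.35. On chromosome 7, MRPS24 changed by -0.52 with neighbours at -0.30. Chromosome 4 was low as a whole in replicates 3 and 4, with a median of -0.45 over 292 other tested genes, and its 2 members, MRPL1 and MRPS18C, changed by -0.38 and -0.52. Chromosome 15 was the high one, with a median of 0.38 over 306 other tested genes, and its 2 members, the head-to-head genes MRPS11 and MRPL46, changed by 0.55 and 0.27 beside neighbours at 0.44. Members on a shared stretch have the same neighbours and are not independent points.

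In replicates 1 and 2 the members' changes were mostly larger than those of their neighbours. Of the 56 members with a position that were called higher there, 1 had a neighbour median above 0.2, MRPS27 (neighbours 0.35). Members exceeded their neighbour median in 66 of 77 cases, by 0.24 at the median, against 39 of 77 cases and 0.011 in replicates 3 and 4. Over the 77 members the correlation of a gene's change with its neighbour median was r = 0.59 in replicates 3 and 4 and r = 0.32 in replicates 1 and 2, given as a description since neighbours and libraries are shared. With each library's chromosome medians removed, over 8 libraries, 8 members were called higher (background 6.9%) and 0 lower (background 6.38%), with 5 lower at an unadjusted p under 0.05 in limma. MRPS11 (0.26 in place of 0.48, adjusted p = 0.0654) and MRPL28 (0.28 in place of 0.34, adjusted p = 0.0535) were no longer called, and MRPS31 was added (0.23, adjusted p = 0.0399). With the medians of neighbours within 5 Mb removed instead, 9 members were called higher (background 6.57%) and 2 lower, MRPS2 and MRPS6 (background 6.17%). MRPS11 was called there at a smaller log2 fold change of 0.29 (adjusted p = 0.0381). MRPL37 (0.28 in place of 0.34, adjusted p = 0.0582) and MRPL28 (0.20, adjusted p = 0.118) were not called, and MRPL2 (0.36) and MRPL24 (0.39) were added. Both corrections were chosen after seeing the data.

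**Figure D5:**
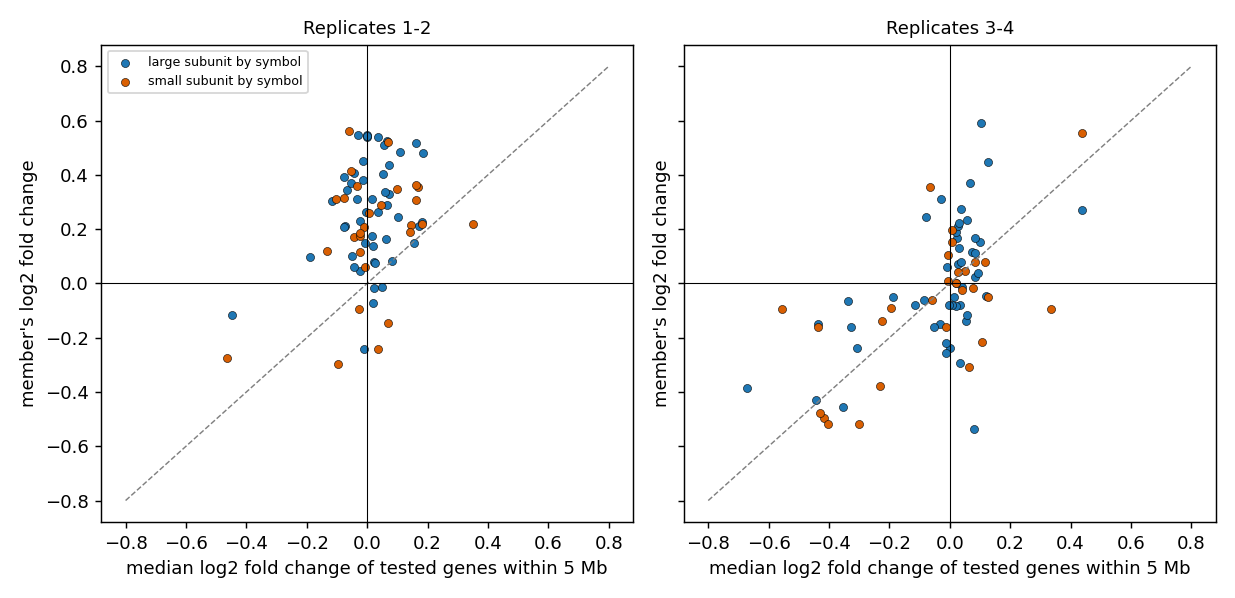
Log2 fold change of each member (y axis) against the median log2 fold change of the other tested genes within 5 Mb (x axis) in replicates 1 and 2 (left) and replicates 3 and 4 (right), for 77 genes; the dashed line marks equal values. In replicates 1 and 2 the points rise above the line at neighbour medians near 0, and in replicates 3 and 4 the points with low neighbours are themselves below 0.

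By place in the large subunit the counts were too small to read against the 7.02% of all tested genes called higher. Of the proteins near the catalytic core (MRPL2, MRPL3, MRPL4 and MRPL16) 1 of 4 rose, of those at the tunnel exit (MRPL17, MRPL22, MRPL23, MRPL24, MRPL45 and MRPL47) 1 of 6, and of the central protuberance (MRPL18, MRPL27, MRPL38, MRPL40, MRPL46, MRPL48, MRPL55 and MRPL58) 1 of 8. Of the stalk and its base (MRPL10, MRPL11, MRPL12, MRPL53 and MRPL54) 0 of 5 passed in limma, with 1 at an unadjusted p under 0.05. The medians were 0.11, 0.24, 0.16 and 0.016, in that order. Among members with a promoter sequence, the ETS letters were in 2 of the 8 called genes and 27 of the 61 others, and the YY1 letters in 0 of the 8 and 20 of the 61. Of the 10 genes called lower in replicates 3 and 4, 3 held the ETS letters and 5 the YY1 letters.

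Other genes of mitochondrial gene expression were compared from lists written from general knowledge, beside 7.02% of all tested genes called higher and 6.1% lower. Of 5 mitoribosome proteins with other symbols, 2 rose, AURKAIP1 by 0.39 and GADD45GIP1 by 0.25 log2, and DAP3, CHCHD1 and PTCD3 were not called, with a list median of 0.21. Of 20 tested ribosome assembly factors 2 rose and 0 fell, MPV17L2 by 0.47 and NGRN, which lies on chromosome 15, by 0.32, with a median of 0.12. The call of NGRN was lost with chromosome medians removed (0.0953, adjusted p = 0.429) and with neighbour medians removed (0.11, adjusted p = 0.546). Of 17 tested translation factors 1 rose, MTFMT, the formyltransferase of the initiator tRNA, also on chromosome 15, by 0.24. With chromosome medians removed MTFMT was at 0.0212 (adjusted p = 0.914) and with neighbour medians removed at -0.0066 (adjusted p = 0.974). In the same list MTIF3, the initiation factor that keeps the subunits apart, fell by 0.47 (adjusted p = 0.0173). MTIF3 was at 1.20, 1.27, 1.33 and 1.51 in the controls and 0.81, 0.73, 0.83 and 1.06 in the knockouts. All knockout values were below all control values, and the first and second pairs of replicates gave -0.47 and -0.48. MTIF3 had a control mean of 1.33 and a knockout mean of 0.86. It passed the filter, a mean of at least 1, only through the control libraries. Of 19 tested mitochondrial aminoacyl-tRNA synthetases 0 passed in limma, with 3 higher and 1 lower at an unadjusted p under 0.05 and a median of 0.05, and 1 was called lower with the replicate block. Of 21 tested genes of mitochondrial DNA upkeep and RNA processing 5 rose and 0 fell, led by PNPT1, a mitochondrial RNA-degrading enzyme, by 0.40, MTERF1 by 0.37 and FASTKD5 by 0.35, with a median of 0.14. MTERF1 had a control mean of 0.83 and a knockout mean of 1.20. It passed the filter, a mean of at least 1, only through the knockout libraries. With the block, 1, 1, 0 and 3 of these lists' rises were called, in the order mitoribosome proteins with other symbols, assembly, translation factors, and DNA upkeep and RNA processing, beside 5.68% of all tested genes. With knockout pairs averaged, limma called 0 of the 82 tested genes in these 5 lists (background 0.488% called higher and 0.71% lower). At an unadjusted p under 0.05, 11 of the 82 were higher and 2 lower there. The share of all tested genes at that threshold was not taken, so these counts have no background to be read against. The 13 proteins encoded by the mitochondrial genome were not analysed here.

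The nuclear subunits of the respiratory chain and the ATP synthase assemble with the products of the mitochondrial ribosome. Of 76 genes 24 rose and 0 fell in limma, with 1 lower at an unadjusted p under 0.05, beside a background of 7.02% called higher. Their median was 0.21 over 8 libraries, and 0.30 and 0.15 in the first and second pairs of replicates. The largest rises were those of ATP5MC1, a subunit of the ATP synthase ring, by 0.65, and of the complex III subunits UQCRQ by 0.52 and UQCR10 by 0.49. With the replicate block 13 of the 76 were called higher (background 5.68%), and with knockout pairs averaged limma called 0 (background 0.488% called higher). At an unadjusted p under 0.05, 32 were higher and 0 lower with the pairs averaged. The share of all tested genes at that threshold was not taken, so these counts do not show that the rise remains with the pairs averaged. Of 77 cytosolic ribosomal protein genes 1 rose (RPS26, 0.28) and 1 fell (RPS28, -0.27), with a median of -0.08, and of -0.0065 and -0.12 in the first and second pairs of replicates. With the block neither was called (adjusted p = 0.0533 and 0.0783). At an unadjusted p under 0.05, 2 of the 77 were higher and 13 lower (background 16% and 13.7%). In replicates 3 and 4 alone 5 were called higher and 21 lower (background 15.7% and 17.4%). Cytosolic ribosomal protein genes have many processed copies, so their values are uncertain where reads were split.

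Of 9 tested regulators of mitochondrial biogenesis, 0 were called over 8 libraries in limma, with 2 lower and 0 higher at an unadjusted p under 0.05. PPARGC1A, PPARGC1B and ATF5 were under the filter. GABPA was called lower with neighbour medians removed (-0.31, adjusted p = 0.0398) and ATF4 with the term for replicates 1-2 against 3-4 (adjusted p = 0.0443). In replicates 1 and 2, 3 of the 9 were called higher and 1 lower (background 33% and 26.6%). In replicates 3 and 4, 0 were called higher and 4 lower (background 15.7% and 17.4%). NRF1 was called higher in the first pair of replicates (0.22, adjusted p = 0.0086) and GABPA lower (-0.24, adjusted p = 0.0402). GABPB1 was called lower in the second pair (-0.31, adjusted p = 0.0239). Over 8 libraries the log2 fold changes were 0.12 for NRF1, -0.21 for GABPA, -0.12 for GABPB1, -0.14 for YY1, 0.016 for ESRRA and -0.09 for PPRC1. The stress regulators and MYC followed the knockout pairs. MYC was at 1.62, 1.63, 1.86 and 1.74 in the controls and 2.25, 2.16, 1.09 and 1.12 in the knockouts, above the controls in the first pair and below them in the second. DDIT3, a transcription factor of the stress response, was at 5.54, 5.57, 4.26 and 5.20 in the controls and 5.89, 5.84, 1.55 and 1.54 in the knockouts. Knockouts 3 and 4 were far below every other library. ATF4, which acts upstream of DDIT3, had a log2 fold change of -0.09 in the first pair and -0.81 in the second. Whether these levels bear on the ribosomal protein genes was not tested.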

How the data were processed

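Stranded total RNA libraries of 143B cells, 4 vector control and 4 NELL1 knockout, were measured. The authors' deposited table gives 1 log2 value per gene symbol and library. The base and the unit before the logarithm are not stated, and base 2 was inferred from the range. Every library has a mean of 1.07 and a median of 1.77, which shows quantile normalization by the authors and hides any shift shared by most genes. The submitters' processing notes name bcl2fastq, Partek 7.0 and GRCh38 without their roles; the aligner, the counting and the annotation are not given in the sources used here. Blank cells were treated as missing.

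The fit took the 9016 genes without a blank whose mean was at least 1, and used limma 3.58.1 in R 4.3.3, knockout minus control, with Benjamini-Hochberg adjustment over all of them. The fit was run on simulated data with independent libraries and a change of 1 log2 in 200 genes. That setting has no close pairs of knockout libraries and no smaller changes, so it does not show how the fit performs on these data. The symbol rule and all gene lists were chosen with earlier results of these data known. Members were named if called, if among the 3 largest changes per direction in a subunit, or if among the 2 largest differences per direction between replicates 1-2 and 3-4; in each list the called genes were named, up to 3 per direction, and all regulators measured. MRPL1, MRPL2, MRPL9, MRPL15, MRPL24, MRPL45, MRPL46, MRPS6, MRPS18A, MRPS24, MRPS27, MRPS28 and MRPS31 were named after their values were seen.

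Deviations of same-numbered libraries from their group means correlated at 0.20 to 0.29 in every pair, with a mean of 0.25. Differently numbered libraries within the sets 1-2 and 3-4 correlated at 0.11 to 0.31, with a mean of 0.23. The ranges overlap, so the values do not show that equal numbers are pairs. The replicate block is given only as an alternative fit. Positions and promoters came from RefSeq GRCh38.p14. Precision rests on the spread between libraries alone.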

Additional observations from a re-analysis of the deposited data

How the results depend on the processing

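Of the 9 genes called higher over 8 libraries, all 9 kept their direction in every alternative, and all 9 were called under a pseudocount of 1, a robust variance trend, another quantile normalization, centring on the median and the batch term. With a mean of at least 3 all 8 of them that were tested were called. The replicate block, with same-numbered libraries paired, called 4 members higher (924 genes in all), no filter on low values called 5 members, averaged knockout pairs 0 members (108 genes), a batch term 16 higher and 3 lower (2274 genes), and a mean of at least 3 called 729 genes. Without knockouts 1 and 2, 14 members were lower and 13 higher (3732 genes); without knockouts 3 and 4, 34 were higher and 3 lower (3654 genes). Replicates 1-2 alone gave 57 higher and 4 lower (5380 genes), and replicates 3-4 alone 7 higher and 10 lower (2987 genes). The removal of 5 Mb neighbour medians gave 2 lower. Leaving out 1 library gave 0 members called higher (without control 1) to 13 (without control 3), 0 to 1 lower, and 391 genes (without control 4) to 1353 (without control 3). Without controls 1, 2 and 4 and knockout 3, 444, 431, 391 and 716 genes were called. The MRPL median was 0.0175 without knockouts 1 and 2, 0.26 in replicates 1-2 and -0.0457 in replicates 3-4, and the MRPS median was -0.0225 without knockouts 1 and 2 and -0.0483 in replicates 3-4. Leaving out 1 library, the medians ranged from 0.09 to 0.18 (MRPL) and from 0.05 to 0.15 (MRPS). The causes were not tested.

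Among uncalled members that were named, these values changed sign. MRPL36 was 0.15 in replicates 1-2. MRPL14 was 0.11 without knockouts 3 and 4, 0.10 in replicates 1-2 and 0.0712 with neighbour medians removed, where MRPS17 was 0.15 and MRPS10 0.16. MRPS14 was 0.10 in replicates 3-4 and 0.0157 with chromosome medians removed. MRPL57 was -0.0003 with median centring, -0.21 without knockouts 3 and 4 and -0.12 in replicates 1-2. MRPS10 was 0.35 without knockouts 3 and 4 and 0.36 in replicates 1-2. MRPS18C was -0.50 without knockouts 1 and 2 and -0.52 in replicates 3-4. Leaving out 1 library gave ranges of -0.0779 to 0.0415 for MRPS14, -0.0696 to 0.0888 for MRPL57, -0.20 to 0.0964 for MRPS10 and -0.17 to 0.20 for MRPS18C. Depth is unknown, so no detection limit can be given.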
